A study of Mus musculus with 12 samples.

Results

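The comparison described here sets the small intestine of mice fed zinc bound through the hydroxy end of an organic complex against that of mice fed zinc bound through the amino end. All 12 libraries of the series enter it, 6 with the hydroxy and 6 with the amino complex, and the groups were read from the sample labels. Each library came from total RNA of the whole small intestine of 1 C57BL/6 mouse. Zip4, the importer gene listed under the symbol Slc39a4, was intact in the wild-type mice (WT), heterozygous in the HET mice and knocked out in the KO mice, and each genotype gave 2 libraries per complex. Per the sample labels the WT and HET diets held 15 ppm zinc and the KO diets 40 ppm, while the series description gives 15 ppm throughout. Each complex was therefore compared within a genotype, at 1 labelled zinc level, and the 3 differences were averaged by taking genotype as a block. The WT mice were 210 and 218 days old with the amino and 237 and 221 days with the hydroxy complex. The HET mice were 363 and 141 days against 338 and 143 days, and the KO mice 198 and 228 days against 237 and 240 days. A single mouse, KO amino 2, was labelled female. Libraries are named by group and replicate number, and the numbers only name them. The labels give neither the promoter or cell type of the deletion, nor the organic molecule that carried the zinc, nor a litter, cage or day, so the p-values rest on the spread between these mice. No library of mice fed zinc outside such a complex was analysed here.

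ZIP4 sits in the apical membrane of enterocytes and carries zinc from the gut lumen into the cell, and its mRNA is stabilised when zinc is scarce. Inside the cell, zinc activates the transcription factor MTF1, which binds metal response elements and switches on the metallothioneins Mt1 and Mt2 and the exporter Slc30a1. Zinc chelated by an amino acid or a related acid has been proposed to enter by the carrier of that ligand, and amino acid transporters, amino acid sensing and the dicarboxylate carriers were for that reason among the gene groups looked at.

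Libraries held 26.0 to 38.8 M reads, of which 62.0% to 71.8% fell in the listed genes, and 3 reads made up 0.0773 to 0.115 CPM (reads scaled by library size), a limit that covers counting error only. Several libraries stood apart from others of their complex. Xist, the RNA of the inactive X chromosome, was at 244 CPM in KO amino 1, which is labelled male, and at 0.155 CPM in KO amino 2, which is labelled female. Ddx3y, a gene of the Y chromosome, was at 0.0001 CPM in KO amino 1 and at 32.2 CPM in KO amino 2. Both genes run against the labelled sex of these 2 libraries. The labels were kept, and whether they were exchanged was not tested. Fabp6, the ileal bile acid binding protein, reached 259 CPM in WT hydroxy 1 and 99.3 CPM in HET amino 2 and was under 1 CPM in the other libraries. Myh11, of smooth muscle, ran from 209 to 1957 CPM with the hydroxy and from 397 to 2215 CPM with the amino complex, and the summed CPM of the 14 smooth muscle markers overlapped widely (1537 to 8940 against 1976 to 9052). Counts of genes without the Fabp6-rich libraries and without each library are given with the processing alternatives. In whole tissue, fewer cells of a type and less RNA per cell cannot be told apart.

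No gene passed the test of the complex. Of 14001 genes tested with limma on log2(CPM + 1), 0 (0%) had a Benjamini-Hochberg adjusted p under 0.05, and the smallest adjusted p was 0.57. At an unadjusted p under 0.05, 959 genes (6.85%) had higher and 242 (1.73%) lower values under the hydroxy complex. That split of directions followed the scaling: it was 527 against 522 after quantile normalization and 534 against 449 after median-ratio scaling, and 292 against 203 once a trend with transcript length, described below, had been removed. The median log2 difference over all genes was 0.07, and 62.8% of genes lay above 0. The median half-width of the 95% interval was 0.40, and for 12969 genes (92.6%) the whole interval lay within a log2 difference of 1 in either direction. Every hydroxy library was above every amino library for 17 genes (0.121%) and below for 1 gene (0.00714%). Both hydroxy libraries were above both amino libraries in each of the 3 genotypes for 185 genes (1.32%) and below for 36 genes (0.257%). With 2 libraries against 2, separation within a single genotype is common without any effect. Its share over all genes is not given here, so where it is reported for a gene below it only describes the values. The split by complex took 7.19% of the variance over all genes and the split by genotype, which includes the labelled zinc level, 32.0%. Any split of 12 libraries takes some share through the spread between mice alone, and a split into more groups takes more. Neither share by itself measures an effect.

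**Figure D1:**
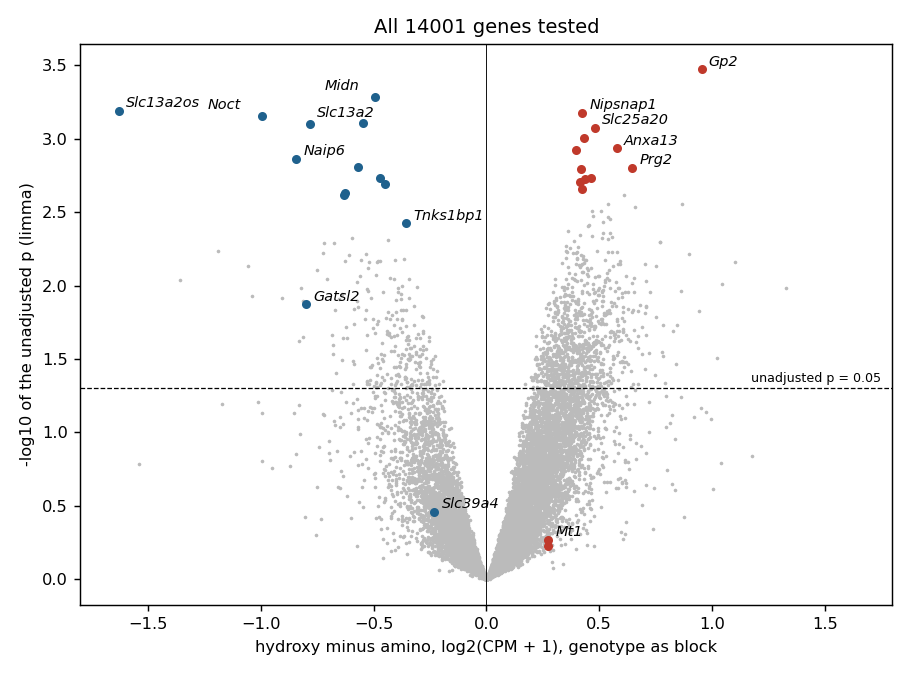
Each point is 1 of the 14001 genes; the x axis is hydroxy minus amino on log2(CPM + 1) with genotype as a block, and the y axis is −log10 of the unadjusted limma p. Red and blue points are the named genes with higher and lower values, and the dashed line marks an unadjusted p of 0.05; more genes lie above that line on the right (959) than on the left (242), and 0 pass after adjustment.

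The targeted gene and the genes closest to zinc came first. Slc39a4 was at 256 and 218 CPM in WT amino, 256 and 188 in WT hydroxy, 117 and 249 in HET amino, 145 and 267 in HET hydroxy, 90.1 and 91.6 in KO amino and 42.0 and 64.8 in KO hydroxy. All 4 KO libraries were below all WT and HET libraries, as the labels have it, yet none was near 0, and the sources used here do not say which part of the gene the deletion removes. The complexes overlapped in WT and HET, and in KO both hydroxy libraries were below both amino libraries. The difference was −0.23 on the log2 scale (SE 0.24), with an exact two-sided p of 0.398 from permuting the complex labels within genotype, where the smallest possible p is 0.00926. Without the KO mice it was 0.05.

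Mt1, a metallothionein that buffers zinc, was at 28.4 and 44.1 CPM in WT amino, 26.5 and 50.1 in WT hydroxy, 36.3 and 68.7 in HET amino, 22.5 and 35.7 in HET hydroxy, 10.7 and 11.2 in KO amino and 15.4 and 76.8 in KO hydroxy. Both hydroxy libraries were lower in HET and higher in KO, and WT overlapped. Over all genotypes the difference was 0.28 (exact permutation p 0.704), and it was −0.17 without KO hydroxy 2, the library with the highest value. Mt2, its neighbour on chromosome 8 with the same role, ran from 1.02 to 10.3 CPM with the amino and from 2.19 to 13.1 CPM with the hydroxy complex, with differences of 0.48 in WT, −1.36 in HET and 1.70 in KO. Its overall difference was 0.27 (exact permutation p 0.676), and −0.14 without KO hydroxy 2. Adjusted over these 3 genes, each exact p was 0.704.

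Of 12 tested ZIP importers, 8 lay above 0, and their median was 0.08, against 0.07 over all genes; it was 0.00 without WT amino 1. Slc39a5, whose product ZIP5 faces the blood side of the enterocyte, was among the 17 genes for which every hydroxy library was above every amino library, at 155 to 160 CPM against 130 to 153 CPM. The difference was small, 0.14 on the log2 scale (limma unadjusted p 0.10, adjusted over all genes 0.61). Slc39a7, whose product ZIP7 releases zinc from the endoplasmic reticulum, averaged 127 against 101 CPM, a difference of 0.32 (SE 0.11, limma unadjusted p 0.015) that was 0.01 in WT, 0.43 in HET and 0.50 in KO. Slc39a14, an importer of zinc and non-transferrin iron, was at −0.21. Of 8 tested ZnT exporters 3 lay above 0, with a median of −0.05, which was 0.06 without HET amino 2. Slc30a2, which loads zinc into vesicles, averaged 42.4 CPM with the hydroxy and 54.4 CPM with the amino complex, a difference of −0.38 (limma unadjusted p 0.11). Slc30a4 was at 0.64 in WT and −0.32 in HET, without overlap of the libraries in either. Slc30a1, the plasma membrane exporter under MTF1, was at −0.10, and Mtf1 itself at −0.23. Of the 7 tested zinc-responsive genes 3 lay above 0, with a median of −0.10, which was 0.08 without HET amino 2.

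The 250 bases before the annotated start of Mt1, Slc13a2 and Noct are shown because Mt1 is the reference for a zinc-driven promoter, and Slc13a2 and Noct are 2 of the genes given with the comparison. They come from RefSeq (build GRCm38.p6), at chr8:94178839-94179088 on the plus strand for Mt1, chr11:78422235-78422484 on the minus strand for Slc13a2 and chr3:51224197-51224446 on the plus strand for Noct, each written 5′ to 3′ along the gene. Capitals mark the metal response element core (TGCACNC or TGCGCNC), the E-box CACGTG or the D-box TTATGTAA on either strand.
Mt1: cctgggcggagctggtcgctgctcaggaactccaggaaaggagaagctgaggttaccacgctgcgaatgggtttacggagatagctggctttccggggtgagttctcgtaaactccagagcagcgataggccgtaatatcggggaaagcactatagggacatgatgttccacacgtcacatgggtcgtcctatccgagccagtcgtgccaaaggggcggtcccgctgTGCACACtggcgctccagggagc
Slc13a2: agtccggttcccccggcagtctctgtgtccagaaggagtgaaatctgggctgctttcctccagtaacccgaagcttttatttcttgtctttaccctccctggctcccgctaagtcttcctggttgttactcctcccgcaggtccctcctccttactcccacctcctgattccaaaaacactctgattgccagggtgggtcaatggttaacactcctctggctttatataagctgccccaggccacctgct
Noct: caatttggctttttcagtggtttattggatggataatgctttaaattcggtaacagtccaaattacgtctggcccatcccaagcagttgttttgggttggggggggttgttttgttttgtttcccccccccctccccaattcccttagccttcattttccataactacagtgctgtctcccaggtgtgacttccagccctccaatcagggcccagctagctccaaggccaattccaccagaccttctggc
The window of Mt1 held 1 metal response element core, 23 bases before the start, and so did that of Slc25a20, described below, 233 bases before the start. Those of Slc13a2, Noct, Gatsl2 and Gp2 held none of the 3 motifs. Among 27025 RefSeq promoters of the same length, 21.2% held a metal response element core, 5.93% the E-box and 0.87% the D-box. A match in such a window is a description of its letters, and so is the lack of one. Bases after the annotated start were not searched, so the count for Mt1 is that of its window and not of its whole promoter.

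Among the genes lower with the hydroxy complex that had the smallest p was a carrier of citric acid cycle intermediates. Slc13a2, the sodium-coupled dicarboxylate carrier NaDC1 of the brush border (chr11:78397276-78422185), was at 382 and 296 CPM in WT amino and 133 and 139 in WT hydroxy. It was at 131 and 160 CPM in HET amino, 98.9 and 139 in HET hydroxy, 123 and 166 in KO amino and 97.7 and 73.2 in KO hydroxy. The hydroxy libraries were lower without overlap in WT and KO and overlapped the amino libraries in HET. The log2 difference was −0.78 (SE 0.18, limma unadjusted p 0.00079, adjusted 0.57), made up of −1.30 in WT, −0.30 in HET and −0.75 in KO, and it ran from −0.90 to −0.67 as each library was left out. Slc13a2os, an antisense transcript over the 3′ part of Slc13a2 (chr11:78394485-78405657), averaged 4.59 ± 3.85 CPM (SD, n = 6) with the hydroxy and 13.9 ± 6.40 CPM (SD, n = 6) with the amino complex, and was lower without overlap in each genotype (−2.10 in WT, −0.85 in HET, −1.94 in KO). The sources used here do not say whether strand was used in counting, and reads of this pair cannot be told apart without it.

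Noct, a rhythmic phosphatase of NADPH that is known from mouse intestine for its role in fat absorption, was at 79.3 and 62.5 CPM in WT amino, 55.5 and 28.7 in HET amino and 54.6 and 31.8 in KO amino. The hydroxy libraries lay close together, at 21.5 and 22.6 CPM in WT, 30.2 and 29.0 in HET and 21.0 and 21.8 in KO. They were below both amino libraries in WT and KO and overlapped them in HET. The log2 difference was −0.99 (SE 0.22, limma unadjusted p 0.000705, adjusted 0.57). Dbp, a clock output gene, stood beside it at 8.65 to 164 CPM with the amino and 7.20 to 101 CPM with the hydroxy complex. With a clock score as a covariate (Dbp, Per2, Per3, Nr1d1 and Ciart against Arntl and Npas2), the difference of Noct was −0.94.

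Gatsl2 (Castor2 in GENCODE and RefSeq), a relative of the arginine sensor CASTOR1 of the mTORC1 pathway, differed in KO. It was at 31.8 and 28.7 CPM in KO amino and at 8.10 and 5.89 CPM in KO hydroxy, while the WT libraries (25.1 to 37.5 amino, 22.2 to 27.8 hydroxy) and the HET libraries (30.2 to 38.7 and 30.5 to 32.3) overlapped. The log2 differences were −1.98 in KO, −0.29 in WT and −0.12 in HET, and −0.80 with genotype as a block (limma unadjusted p 0.013, adjusted 0.57). The limma test of whether the 3 differences are equal gave an unadjusted p of 0.00069 and an adjusted p above 0.99. Over all genes that test was passed by 314 (2.24%) at an unadjusted p under 0.05 and by 0 after adjustment. Of 31 mTORC1 and amino acid sensing genes 22 lay above 0, with a median of 0.07 (0.02 without WT amino 2), and Lamtor2, a subunit of the Ragulator scaffold, was at 0.41.

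The other genes of the lower group were Midn (−0.49), which carries proteins to the proteasome, Ankrd52 (−0.55), a regulatory subunit of protein phosphatase 6, Naip6 (−0.84), a sensor of bacterial flagellin, Plekhg2 (−0.57), Mical2 (−0.47), an oxidase of actin, Elmsan1 (−0.45), part of a histone deacetylase complex, Fam102a (−0.63), Kif21b (−0.63), a kinesin, and Tnks1bp1 (−0.36), a partner of the CCR4-NOT deadenylase. Their limma unadjusted p ran up to 0.0038, with an adjusted p of 0.57 for each. All 12 lower genes had a negative difference in each genotype, and for 8 both hydroxy libraries were below both amino libraries in every genotype. They were picked by small p from the same libraries with genotype as a block, which favours such a pattern, so these counts are no separate support. Midn was at 91.0 to 140 CPM with the hydroxy and 123 to 192 CPM with the amino complex. Naip6 shares reads with near-identical neighbours and is uncertain; Naip5 was at −0.42 and Naip7 at −1.19.

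Among the genes higher with the hydroxy complex the smallest p belonged to Gp2, a receptor for bacteria on the M cells that overlie lymphoid follicles. It was at 0.411 and 0.569 CPM in WT amino, 1.40 and 0.828 in HET amino and 1.34 and 1.46 in KO amino, against 2.72 and 0.951 in WT hydroxy, 4.88 and 2.94 in HET hydroxy and 3.03 and 3.37 in KO hydroxy. Both hydroxy libraries were above both amino libraries in each genotype, with WT hydroxy 2 below the higher amino values of the other genotypes. The mean was 2.98 ± 1.26 CPM (SD, n = 6) against 1.0 ± 0.459 CPM (SD, n = 6), and the log2 difference 0.95 (SE 0.19, limma unadjusted p 0.00034, adjusted 0.57), which understates the ratio of so low a gene.

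Slc25a20, the carnitine-acylcarnitine carrier that brings fatty acids into mitochondria for oxidation, was at 55.9 and 56.1 CPM in WT amino and 84.4 and 63.4 in WT hydroxy, 48.4 and 45.9 in HET amino and 55.0 and 65.5 in HET hydroxy, and 66.0 and 76.1 in KO amino and 115 and 120 in KO hydroxy. The libraries separated in every genotype, and the log2 difference was 0.48 (SE 0.11, limma unadjusted p 0.00084, adjusted 0.57). The rest of the higher group held Nipsnap1 (0.42), a mitochondrial protein exposed when mitophagy starts, Zfand6 (0.43), which binds ubiquitin, Anxa13 (0.58), the annexin of the enterocyte, Bcl2l14 (0.40), of the BCL2 family, Prg2 (0.65), the major basic protein of eosinophils, and Usf1 (0.42), a transcription factor that binds E-boxes. It also held Cops5 (0.46), the catalytic subunit of the COP9 signalosome, Pak1ip1 (0.44), which acts in the making of large ribosomal subunits, Emc2 (0.42), of the ER membrane complex, and Unc50 (0.42). All 12 were higher without overlap in each genotype, and for none were all 6 hydroxy libraries above all 6 amino libraries. The choice by small p with genotype as a block favours such separation, so this count too is no separate support. Anxa13, the most abundant, was at 235 to 480 CPM with the hydroxy and 165 to 268 CPM with the amino complex. These genes differed from the lower group in transcript length, with a median of 1752 bases against 6184 bases. For single genes of both groups, the size of the difference with the length trend removed is not given here. Their direction under that setting is given with the processing alternatives.

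**Figure D2:**
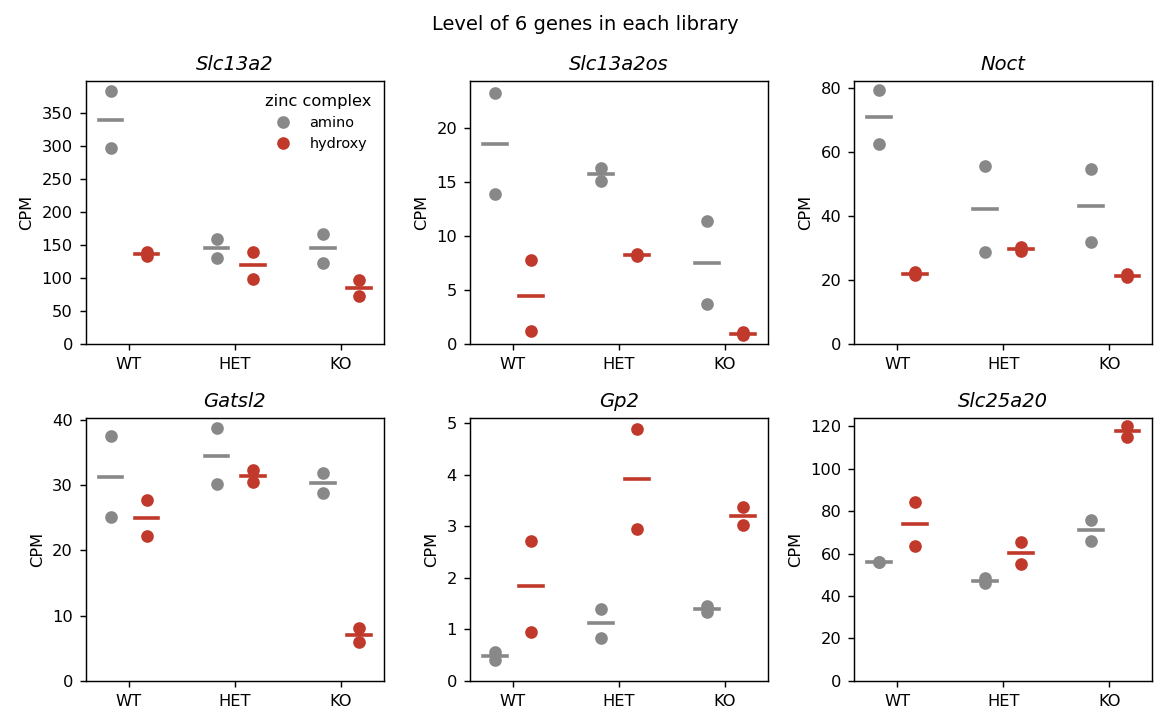
CPM of 6 genes in each of the 12 libraries, by genotype (x axis) and zinc complex (grey amino, red hydroxy); points are mice, bars are the mean of 2, and each y axis starts at 0. Slc13a2os and Slc25a20 separate in every genotype, Gatsl2 separates in KO alone (5.89 and 8.10 against 28.7 and 31.8 CPM), and the 6 hydroxy values of Noct lie between 21.0 and 30.2 CPM.

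The length of the transcript went with the size of the difference across all genes. For the 13846 genes with a length in GENCODE M21 (98.9%), split by length into 5 classes of equal size, the median log2 difference was 0.25 in the shortest class and 0.14, 0.07, 0.00 and −0.09 in the next ones. The share of genes above 0 went from 88.9% to 30.8%. Of the genes at an unadjusted p under 0.05, the shortest class held 576 higher and 2 lower, and the longest 14 higher and 163 lower. In WT the medians stayed between 0.10 and 0.11, whereas they went from 0.28 to −0.18 in HET and from 0.34 to −0.22 in KO. The shortest class took 14.9% and 17.9% of the CPM in HET amino and 19.5% and 21.3% in HET hydroxy, 21.5% and 21.6% in KO amino and 25.0% and 27.1% in KO hydroxy, and in WT the complexes overlapped. Because gene groups differ in length, the groups below are also given after a trend with log length had been taken out of each library, a step chosen after the data were seen. What moves with length in these libraries was not tested.

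**Figure D3:**
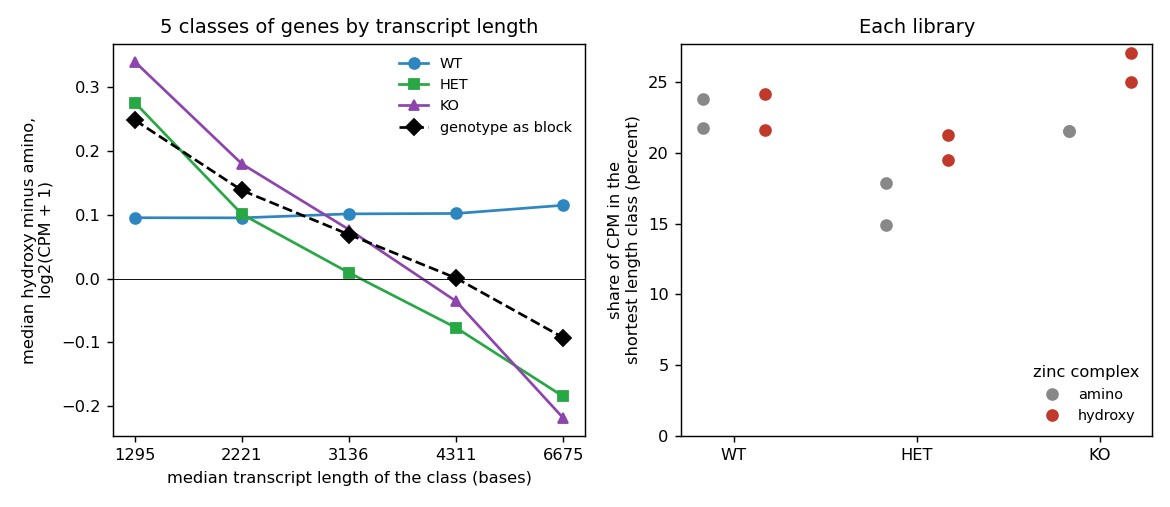
Left, median hydroxy minus amino difference on log2(CPM + 1) of the genes in each of 5 classes of transcript length (x axis, median length in bases), for each genotype and with genotype as a block; right, share of CPM in the shortest class in each library, in percent, where the 2 KO amino points coincide. WT is flat near 0.10, while HET and KO go from 0.28 and 0.34 to −0.18 and −0.22.

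Each list of genes below is read against the whole table, where 62.8% of genes lay above 0 and the median was 0.07 (0.10 in WT, 0.01 in HET and 0.07 in KO). At an unadjusted p under 0.05 in limma, 6.85% of all genes were higher and 1.73% lower. With the length trend removed the median over all genes was 0.01, and 292 genes were higher and 203 lower at that threshold. The share of all genes above 0 under that setting is not given here. Brush border enzymes and genes of sugar uptake stood lower, with the widest differences in KO. All 18 brush border enzymes were below 0, with a median of −0.36 (−0.17 in WT, −0.09 in HET and −0.75 in KO), and 2 of them had an unadjusted p under 0.05. Mgam, the maltase-glucoamylase of starch digestion, averaged 1435 CPM with the hydroxy and 2204 CPM with the amino complex, a difference of −0.64 (SE 0.24, limma unadjusted p 0.023). Mme, the peptidase neprilysin, was at −0.48, Lct, the lactase, at −0.57 (0.03 in HET and −1.57 in KO) and Ggt1, which splits glutathione, at −0.32. Of 11 genes of sugar digestion and uptake 1 lay above 0, and the median was −0.49. Slc2a2, the basolateral hexose carrier GLUT2, averaged 240 against 354 CPM (−0.52), Slc2a7 was at −0.53, and Slc5a1, the sodium-glucose carrier SGLT1, was at −0.49 (2260 against 3233 CPM). In HET the sugar genes had a median of 0.03. With the length trend removed the medians were −0.38 for the enzymes and −0.46 for the sugar genes, and 0 of either list lay above 0. Under that setting 0 of the enzymes and 1 of the sugar genes were lower at an unadjusted p under 0.05 in limma, against 2 and 3 in the main fit. The 2 lists share members, Lct and Mgam among them, and are not separate groups. Without KO hydroxy 2 the median of the enzymes was −0.22, and without the KO mice it was −0.12. The genes of lipid absorption and apolipoproteins had 11 of 21 members above 0 and a median of 0.02 (0.00 in WT, 0.19 in HET and −0.14 in KO), which ran from −0.03 without HET hydroxy 2 to 0.10 without KO hydroxy 2; with the length trend removed 6 lay above 0, with a median of −0.10.

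Amino acid and peptide carriers had 6 of 18 members above 0 and a median of −0.24, the same with the length trend removed. At an unadjusted p under 0.05 in limma, 4 were lower and 0 higher, and with the length trend removed 2 were lower and 0 higher. Without KO hydroxy 2 the median was −0.13. Slc36a1, the proton-coupled carrier of small neutral amino acids, was at 249 and 339 CPM in WT amino and 114 and 167 in WT hydroxy, and at 157 and 266 in KO amino and 83.5 and 61.0 in KO hydroxy. In HET it was at 167 and 184 CPM with the amino and 134 and 274 CPM with the hydroxy complex, which overlap. Its difference was −0.81 (SE 0.28, limma unadjusted p 0.013, adjusted 0.57). Slc15a1, the peptide carrier PEPT1, averaged 373 against 584 CPM (−0.64), Slc43a2, a carrier of large neutral amino acids, 491 against 752 CPM (−0.67), and Slc6a6, of taurine, 138 against 177 CPM (−0.38). The 20 markers of absorptive enterocytes, which include some of these genes, had 7 members above 0 and a median of −0.26, and their summed CPM overlapped between complexes (31990 to 56350 hydroxy, 32630 to 62940 amino). That median was −0.11 without KO hydroxy 2 and −0.46 without HET amino 1.

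The clock list held Noct and had 4 of 20 members above 0, with a median of −0.28 (near 0 in WT, −0.39 in HET and −0.37 in KO) and −0.29 with the length trend removed. Per2, a core repressor of the clock, averaged 10.1 against 23.5 CPM, a difference of −1.05 (SE 0.33, limma unadjusted p 0.0073), and it was lower without overlap in WT and KO. Per3 was at −1.01, and Nfil3, a repressor in antiphase to Dbp, at 0.81. The time of day at which tissue was taken was not analysed here; with the clock score as a covariate, all of whose genes are in the list, the median of the list was −0.13.

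Genes of making protein stood higher. Their transcripts are short, with a median of 955 bases for the ribosomal and 1316 bases for the mitochondrial ribosomal proteins. In the shortest length class, with a median of 1295 bases, 88.9% of 2770 genes lay above 0. Of that class, 576 were higher at an unadjusted p under 0.05 in limma. Of 28 ribosomal proteins 25 lay above 0, with a median of 0.34 (0.30 in WT, 0.05 in HET and 0.75 in KO), and 10 were higher at an unadjusted p under 0.05. Rpl32 averaged 187 against 128 CPM (0.51) and Rps24 stood at 0.71. With the length trend removed the median was 0.12, with 18 above 0 and 1 gene at an unadjusted p under 0.05, and it was 0.22 without KO hydroxy 2. The proteins of the mitochondrial ribosome, a list taken up after values had been seen, were above 0 for 77 of 77 genes, with a median of 0.39 (0.09 in WT, 0.42 in HET and 0.70 in KO), and 50 were higher at an unadjusted p under 0.05. Examples were Mrpl20 (0.54), Mrpl9 (0.47), Mrps18a (0.54) and Mrps10 (0.52). With the length trend removed 71 lay above 0, the median was 0.20, and 19 had an unadjusted p under 0.05 against 292 higher genes over the whole table. The 22 subunits of the respiratory chain went from a median of 0.18 with 21 above 0 to −0.01 with 10 above 0, and the median was 0.12 without HET amino 2.

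Targets of ATF4, the transcription factor that answers a shortage of amino acids, had 19 of 22 members above 0 and a median of 0.30 (0.09 in WT, 0.06 in HET and 0.48 in KO), and 0.21 with the length trend removed. At an unadjusted p under 0.05 in limma, 4 were higher, and 0 with the length trend removed. Atf4 itself averaged 155 against 117 CPM (0.49, limma unadjusted p 0.046), Aldh18a1, of proline synthesis, 184 against 155 CPM (0.25), and Ddit3, which encodes CHOP, was at 0.50. Chac1, which degrades glutathione, was at 0.84, with 15.1 and 6.14 CPM in KO hydroxy and 4.12 and 0.682 in KO amino, and under 2 CPM in the other libraries. Sulfur amino acid genes had 16 of 21 members above 0 and a median of 0.20, and 0.07 with the length trend removed. Gss, the glutathione synthetase, was at 0.36 and Cdo1, the cysteine dioxygenase, at 0.54.

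Genes of fatty acid oxidation and cholesterol synthesis stood slightly higher. Of 25 fatty acid oxidation genes, mostly targets of PPARA, 22 lay above 0, with a median of 0.25, and 0.15 with the length trend removed or without HET amino 2. Beside Slc25a20, Plin2, which coats lipid droplets, averaged 105 against 79.0 CPM (0.38, limma unadjusted p 0.012), Hadha, of the mitochondrial trifunctional protein, was at 0.21, and Acot1, a thioesterase, at 1.0. Acot1 ranged from 1.53 to 15.2 CPM with the amino and from 2.75 to 55.2 CPM with the hydroxy complex. Cholesterol synthesis genes had 17 of 22 members above 0 and a median of 0.13, and 0.05 with the length trend removed; it was 0.02 without WT hydroxy 1 and 0.25 without WT hydroxy 2. Mvd, which makes isopentenyl diphosphate, averaged 24.4 against 13.6 CPM, a difference of 0.75 (limma unadjusted p 0.0073), and Fdft1 (0.39), Idi1 (0.44) and Pmvk (0.51) were the others at an unadjusted p under 0.05. With the length trend removed, 2 of the 22 genes were higher at that threshold.

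**Figure D4:**
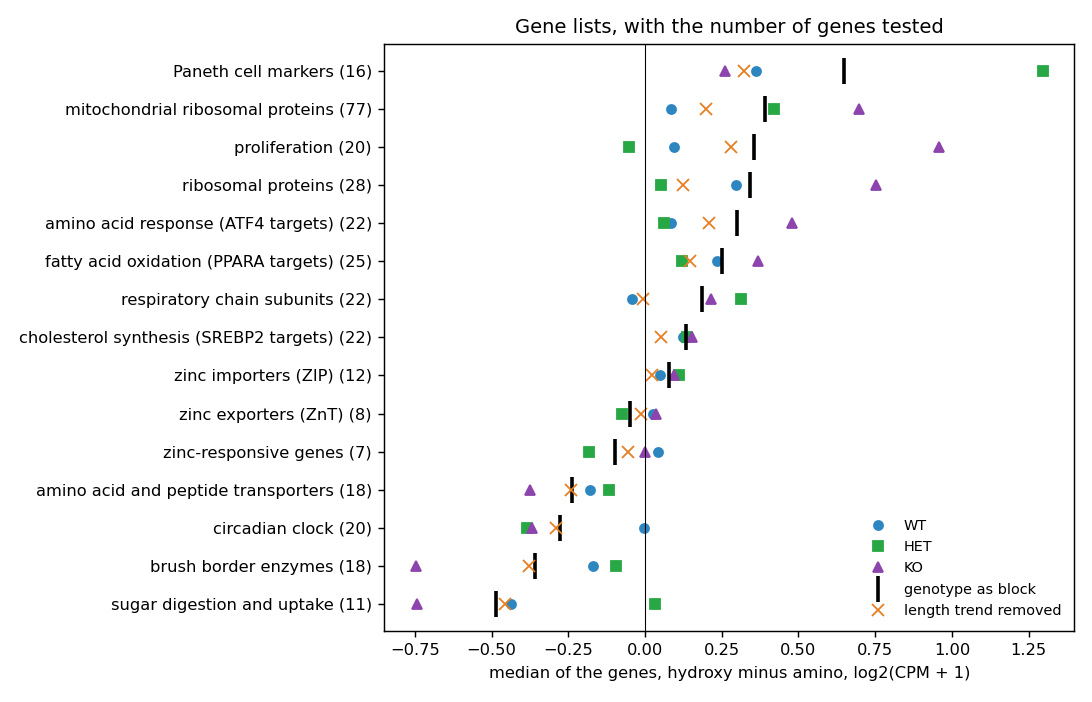
Median hydroxy minus amino difference on log2(CPM + 1) of 15 gene lists (number of genes tested in brackets), in each genotype, with genotype as a block (black bar) and with the length trend removed (orange cross). Sugar genes and brush border enzymes lie at −0.49 and −0.36 and hardly move with the length trend removed, while ribosomal proteins move from 0.34 to 0.12.

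Proliferation genes and Paneth cell markers stood higher, in different genotypes. Of 20 proliferation genes 20 lay above 0, with a median of 0.35, but the medians were 0.10 in WT, −0.05 in HET and 0.96 in KO; with the length trend removed the median was 0.28, with 20 above 0, and without KO hydroxy 2 it was 0.17. Pcna, the replication clamp, was at 39.2 and 59.7 CPM in KO hydroxy and 27.9 and 23 in KO amino, with an overall difference of 0.56 (SE 0.17, limma unadjusted p 0.0059), and Mcm2, of the replicative helicase, was at 0.46. All 16 Paneth cell markers were above 0, with a median of 0.65, and here HET led (1.30, against 0.36 in WT and 0.26 in KO). Their summed CPM overlapped, from 1777 to 5476 with the hydroxy and 822 to 5596 with the amino complex. The α-defensins Defa26 (0.78) and Defa30 (0.75) were the members at an unadjusted p under 0.05, though defensin genes are near-identical and share reads. The median of the list was 0.32 with the length trend removed, 0.28 without HET amino 1 and 0.16 with the clock score as a covariate. With the length trend removed, 0 Paneth cell markers had an unadjusted p under 0.05 in limma. The Reg lectins, secreted proteins of which several bind bacteria, had 2 of 5 members above 0 and a median of −0.42, which ran from −0.98 without HET hydroxy 2 to 0.10 without KO hydroxy 2 and was −0.73 with the length trend removed. Reg4 was at 0.54, without overlap in WT and HET and −0.01 in KO, while Reg3b was at −1.54, Reg1 at −0.75 and Reg3g at −0.42.

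Of the other metals, 9 of 12 copper genes lay above 0, with a median of 0.25, 0.10 with the length trend removed and 0.15 without HET amino 2. Sod1, the copper and zinc superoxide dismutase, averaged 128 against 97.0 CPM (0.40), and the copper chaperones Atox1 and Cox17 were at 0.42 and 0.49. At an unadjusted p under 0.05 in limma, 3 copper genes were higher, and 0 with the length trend removed. Genes of the citric acid cycle and its carriers had 12 of 23 members above 0 and a median of 0.05, and with the length trend removed 7 above 0 and a median of −0.10. The median was 0.02 without KO hydroxy 1 and 0.09 without KO hydroxy 2. Idh2 (0.37) and Suclg2 (0.31), both mitochondrial enzymes, were higher at an unadjusted p under 0.05. Starvation and FOXO targets had a median of 0.45 in WT, −0.12 in HET and −0.02 in KO, and overall 0.11, the same with the length trend removed, −0.02 without WT amino 2 and 0.25 without KO hydroxy 1. Btg1, which holds back cell division, was at 1.01, 0.08 and 0.20. Of the 8 markers of mesenteric fat 8 lay above 0, with a median of 0.53 and summed CPM of 72.5 to 283 with the hydroxy against 32.2 to 220 with the amino complex. The median was 0.32 with the length trend removed, 0.05 without HET amino 2, the lowest library, and 0.91 without HET amino 1. Fabp4 and Cfd, both fat markers, were at 0.80 and 1.04, and the part of attached fat in the higher lipid genes was not tested.

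The summed CPM of the markers of the other cell types of the gut wall overlapped between complexes, with no gene at an unadjusted p under 0.05 in the lists of stem, goblet, enteroendocrine, tuft, smooth muscle, matrix, endothelial, neuronal, T cell, B cell and macrophage genes. Of 13 markers of T cells and intraepithelial lymphocytes 1 lay above 0, with a median of −0.14, which was −0.02 without HET amino 2, −0.37 without WT hydroxy 1 and −0.37 with the length trend removed. Of 9 markers of B cells and plasma cells 8 lay above 0, with medians of −0.33 in WT, 0.09 in HET and 1.53 in KO; the overall median of 0.17 was 0.43 without HET amino 2 and 0.03 with the length trend removed. Genes induced by interferon had 14 of 20 members above 0 and medians of 0.20, −0.29 and 0.95, and the overall median of 0.34 was 0.06 without KO hydroxy 1 and 0.22 with the length trend removed.

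Gene by gene, the differences of the 3 genotypes were weakly correlated. Across genes, which are not independent replicates, the differences in WT and HET had a Pearson r of −0.08, those in WT and KO 0.15 and those in HET and KO 0.20. Of the genes tested, 3359 (24.0%) were higher and 1198 (8.56%) lower in all 3 genotypes. The spread of the differences over genes was an SD of 0.25 in WT, 0.32 in HET and 0.46 in KO. Libraries of the same genotype had a median Pearson r of 0.964 within a complex (6 pairs) and 0.966 between complexes (12 pairs).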

How the data were processed

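The authors deposited 1 table of CPM values for 17112 genes, with 0.0001 added to each value; per the submitters' processing notes Partek, TopHat2 and build mm10 were used, and for the counter, annotation and strand setting the sources used here say nothing. Coordinates are the deposited ones, as 1-based start and end. CPM steps gave whole reads for 93.7% to 95.4% of values per library, which was too few for a count test. Genes that reached 1 CPM in 2 or more libraries were kept, transformed to log2(CPM + 1), and fitted with genotype as a block plus complex in limma 3.58.1 (R 4.3.3, eBayes with trend, two-sided, 8 residual degrees of freedom), with Benjamini-Hochberg adjustment over all genes and a threshold of 0.05. The interaction used 6 group means. The steps were tested on simulated data. Named genes are Slc39a4, Mt1, Mt2, Slc13a2, Noct and Gatsl2, the 12 smallest p each way without predicted genes, and up to 4 members of each list described with the smallest p; Dbp, Naip5, Naip7, Cfd, the mitochondrial ribosomal proteins, the library markers and the genes of the closing observations were chosen after their values were seen. A few genes taken by this rule are left out here. All members and lists were chosen with earlier results of these data known, and support nothing by their choice.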

Additional observations from a re-analysis of the deposited data

Results flagged for a closer look

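For 98 of the genes named in the text, the 6 libraries of each complex were checked for a value far from the other 5 on the log2(CPM + 1) scale. Of 196 such groups, 12 held one. Chance marks about 1 group in 20, but Xist, Fabp6 and Cfd, which are among those flagged, were chosen after their values were seen. The count of 12 therefore cannot be set against that rate. The library HET amino 2 held the low value of Ddit3 (4.63 CPM), Rps24 (9.42 CPM), Fabp4 (7.94 CPM) and Cfd (0.184 CPM) and the high value of Fabp6 (99.3 CPM). KO hydroxy 2 held the high value of Idh2 (135 CPM) and Suclg2 (77.4 CPM). KO amino 1 held the high value of Chac1 (4.12 CPM) and of Xist (244 CPM), the latter against its label. WT hydroxy 1 held the high value of Slc30a4 (120.3 CPM) and Fabp6 (259 CPM), and WT hydroxy 2 that of Xist (0.459 CPM), a level near 0.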

How the results depend on the processing

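No gene passed the adjusted threshold for the complex under any of 16 alternatives or 12 fits without 1 library, and the direction of 28 named genes stayed as reported in all of them except for Slc39a4, Mt1 and Mt2. With WT and HET alone, Slc39a4 was at 0.047, Mt1 at −0.38 and Mt2 at −0.44, and Mt2 was at −0.067 with the length trend removed. As each library was left out, Mt1 ran from −0.17 to 0.52 and Mt2 from −0.14 to 0.57. The test of unequal differences between genotypes was passed by 1 gene with no filter and by 0 to 2 genes as each library was left out; the 2 were Y-linked, without KO amino 2. Genes at an unadjusted p under 0.05 (959 higher, 242 lower) were 94 and 28 with WT and HET alone, 468 and 122 without the Fabp6-rich libraries, 1689 and 492 with a smooth muscle score, 1415 and 528 with a clock score, 1755 and 515 with array weights, 454 and 113 without KO amino 2 and 1451 and 430 without HET amino 1; the cause was not tested. The count test listed among the alternatives was not run, since whole reads were not recovered. No paired analysis was possible over all genotypes because replicate numbers are names only. In HET the labelled ages are close across the complexes. In WT and KO both hydroxy mice were older than both amino mice by the labels, with medians over all genotypes of 237 and 214 days. With age as a covariate 0 genes passed, but 0 passed without it too, so that count cannot speak to age. The part of age in the differences was not tested.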

Other observations

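Groups taken up only after their values were seen are given here as values. Over all genes 62.8% lay above 0, and 6.85% were higher at an unadjusted p under 0.05 in limma. In the shortest length class 88.9% lay above 0. The genes that make and recycle tetrahydrobiopterin, the cofactor of aromatic amino acid hydroxylases, were above 0 for 8 of 8, with a median log2 difference of 0.36 and 4 at an unadjusted p under 0.05. Pcbd1 was at 32.0 to 51.1 CPM with the hydroxy and 19.8 to 36.4 CPM with the amino complex (0.46), Pts at 0.45 and Qdpr at 0.36, each without overlap in every genotype, and Spr was at 0.28. With the length trend removed the median was 0.13, with 8 above 0 and none of the 8 at an unadjusted p under 0.05, and without HET amino 2 it was 0.21. The signal recognition particle and ER membrane complex, which bring proteins to and into the endoplasmic reticulum, had 15 of 15 genes above 0, with a median of 0.31 and 7 at an unadjusted p under 0.05, among them Emc2 and Srp14 (0.42 each). With the length trend removed 14 lay above 0, the median was 0.16 and 1 had an unadjusted p under 0.05. Of the 10 COMMD genes, which act in endosomal sorting, 10 lay above 0, with Commd2 at 0.55 and Commd9 at 0.47; 6 lay above 0 with the length trend removed, 3 of them at an unadjusted p under 0.05. M cell markers, Gp2 among them, gave 8 of 9 above 0 with a median of 0.29, and 0.13 with the length trend removed; without KO hydroxy 2 the median was 0.16. Purine salvage genes gave 5 of 10 above 0 with a median of 0.03, and 0.00 with the length trend removed; it ran from −0.02 without KO hydroxy 2 to 0.09 without HET hydroxy 2.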
